A study of Saccharomyces cerevisiae with 8 samples.

Results

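Rpb1 binding was examined at 9 genes of ethanol, acetate, lactate, glyoxylate and gluconeogenic metabolism in budding yeast, namely ADH2, ALD4, ALD6, ICL1, MLS1, FBP1, PCK1, JEN1 and CYB2. They are a chosen list of genes of this metabolism on chromosomes V and XI to XVI, out of 3016 protein-coding genes on these 7 chromosomes. The list does not cover the whole metabolism, and a wider list with 20 other genes on these chromosomes is described further below. All 9 were matched by symbol in the RefSeq table of assembly R64. For each gene, every Rpb1 summit inside the gene or within 250 bp of it was taken from each library, a summit being the single base where the peak caller put the top of a peak.

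The strain, AM1003, is labelled as wild type and carries the HO endonuclease under a galactose promoter (GAL::HO). Cells were grown overnight in raffinose medium (YEP) and sampled as untreated (0 h) or 6 h after addition of 2% galactose, which switches on HO and so makes a double-strand break. All libraries share the strain, the GAL::HO construct and the raffinose medium, so galactose as carbon source, the break and 6 h in culture cannot be told apart. Chromatin was precipitated with an anti-Rpb1 antibody, Rpb1 being the biggest of the subunits that make up RNA polymerase II. There were 2 such libraries per time, and the 4 input libraries are not analysed here. The question of the series concerns polymerase on template genes during break-induced replication. None of the 9 genes was chosen for lying on that template. Whether replicates were separate cultures is not labelled, and their spread may be technical.

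Yeast cells given glucose ferment it to ethanol and keep the genes for other carbon sources repressed. This repression is controlled by the Mig1 repressor and the Snf1 kinase pathway. When glucose is gone, the activators Cat8, Adr1 and the Hap complex switch on genes that oxidise ethanol to acetate, turn acetyl-CoA into dicarboxylic acids through the glyoxylate cycle, and make sugar phosphates from them by gluconeogenesis. Raffinose is cleaved outside the cell and represses these genes weakly, whereas galactose enters glycolysis after conversion by the Gal enzymes. ALD6 differs from the other genes in that its enzyme, the main cytosolic acetaldehyde dehydrogenase, is known to be made in glucose too. No library from glucose-grown cells was analysed, so repression by glucose was not measured.

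The lists held between 1074 and 1288 summits per library, of which 585 to 674 lay on the 7 chromosomes. Read depth is unknown. Each summit has a score, given by the authors' peak caller as −log10 of its p (or q, which is not stated), which grows with depth and was not normalized between libraries. It was therefore ranked only within a library, from 1 for the highest score. Scores and ranks of different libraries are printed side by side, but no change between times is read from them. A gene without a summit may still carry polymerase, because a broad or weak signal need not pass the authors' threshold. The genome build of the summits is not stated. On the 7 chromosomes, 58.7% to 88.9% of the gene and library pairs formed by 130 landmark genes (small nucleolar RNA genes and genes for glycolytic enzymes, translation factors and ribosomal proteins) had a summit within 250 bp, and the best shift of the summits was 0 to 100 bp. The offset estimated from landmarks on both strands reached 149 bp, so a distance to a start or stop codon carries an uncertainty of that order. As a check of the treatment, GAL2, the galactose permease gene, had no 0 h summit within 250 bp and had 6 h summits with ranks of 7 and 2. Both lay past the GAL2 stop codon, by 234 and 217 bp, and so outside the gene and near the 250 bp limit. Of the other galactose genes on these chromosomes, GAL80 (the repressor gene) had weak 6 h summits alone, with best scores of 6.79 and 5.96. PGM2 (phosphoglucomutase) went the other way, with 0 h scores of 5.52 and 7.06 and no 6 h summit, and GAL4 (the activator gene) was without a summit throughout.

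Of the 9 genes, 4 had a summit in any library. ALD6 had one in all 4 libraries, as 1 of 9 (11.1%, close to the 9.91% of all genes). ALD4 and ICL1 had one in each 0 h library but in none from 6 h. CYB2 had one in 0 h replicate 1 alone. ADH2, MLS1, FBP1, PCK1 and JEN1 had none in any library. No gene had its only summits at 6 h. At 0 h, 4 of the 9 genes had a summit in replicate 1 and 3 in replicate 2. In each 6 h library 1 gene had one, so the means were 3.5 ± 0.71 against 1 ± 0 (SD, n = 2). Over all genes on these chromosomes the share with a summit ran the opposite way, at 19.7% and 19.8% in the 0 h libraries and 22.9% and 20.5% in the 6 h libraries. In neither case did the times overlap, but for the 9 genes the exact permutation test of 2 against 2 libraries gave p = 0.333 (two-sided), which is the smallest p this design allows. The direction over all genes depends on the 250 bp. With them, 97 genes had summits in both 0 h and neither 6 h library and 129 the reverse, but by gene bodies alone 97 and 67. Over all genes with one, the best summit lay at a median of 0.989 and 1.01 of the gene length in the 6 h libraries.

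**Figure D1:**
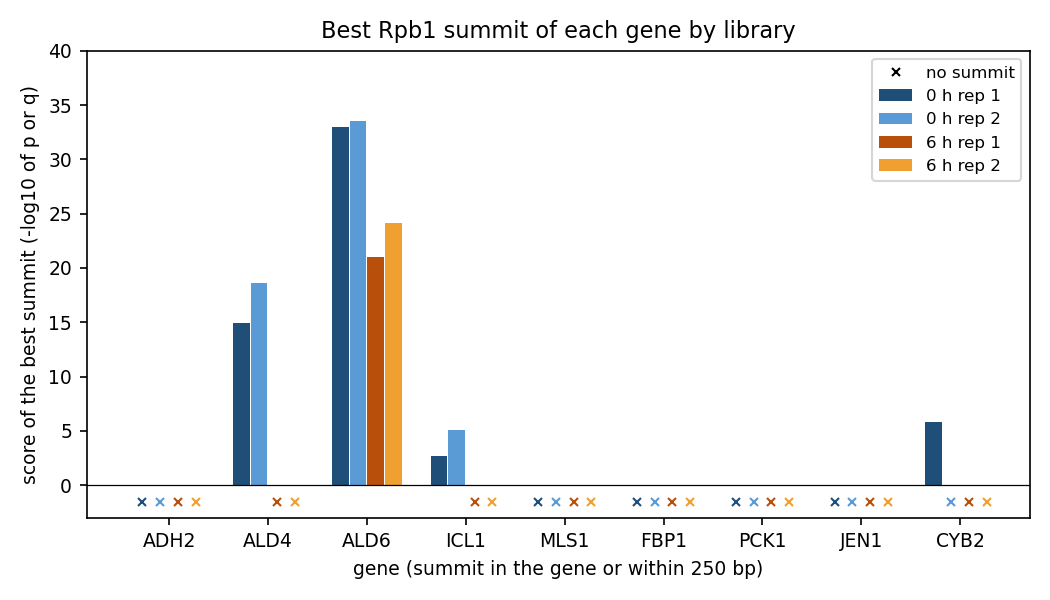
Score of the best Rpb1 summit in the gene or within 250 bp (vertical axis, −log10 of p or q, not normalized between libraries) for each of the 9 genes, with 1 bar per library and a cross where a library had no summit. ALD6 has 4 bars, ALD4 and ICL1 have 0 h bars alone, CYB2 has 1 bar, and the other 5 genes have crosses throughout.

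ALD4 and ICL1, whose summits were found in both libraries at 0 h and in neither at 6 h, are 22.2% of the 9 genes and can be set beside all genes on the same chromosomes, where 97 of 3016 had this pattern (3.22%). Starting from genes that had summits in each 0 h library, 2 of 3 of these metabolic genes and 97 of 473 genes in all (20.5%) had none at 6 h. The opposite pattern, both 6 h libraries and neither 0 h library, was found at 0 of the 9 genes, against 129 of 3016 (4.28%). With so low a share over all genes, 0 of 9 cannot set these genes apart from the rest. The 5 genes without a summit in any library are 55.6% of the 9, against 67.1% of all genes. These shares rest on at most 5 of the genes each and were not tested. The 9 genes and the rules were chosen with earlier results of these data known, so the shares are a description alone.

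ALD4 and ALD6 encode the enzymes that oxidise acetaldehyde to acetate, in the mitochondrion and the cytosol respectively. The ALD4 summit lay at 1041381 bp of chromosome XV in 0 h replicate 1, with a score of 14.9 and rank 349 of 1186. In 0 h replicate 2 it lay at 1040941 bp, with a score of 18.7 and rank 308 of 1194. Both were therefore in the upper 30% of their lists, at 29.4% and 25.8% of the list from the top. They were 1541 and 1101 bp from the start codon, the first only 18 bp before the stop codon, and so in the 3′ part of the gene. As a fraction of the gene length these distances are 0.988 and 0.706, and the median of the best summit over all genes with one in the same libraries was 0.893 and 0.829.

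At 6 h, ALD4 had no summit within the gene or the 250 bp on either side. In 6 h replicate 1 a weak summit (score 4.20, rank 961 of 1288) lay at 1041802 bp, which is 403 bp past the ALD4 stop codon and 124 bp before the stop codon of GDH1. GDH1, encoding an NADP-dependent glutamate dehydrogenase, runs towards ALD4 from the other side. In 6 h replicate 2 the nearest summit was 11827 bp from ALD4. With 500 bp added to each gene in place of 250 bp, the summit near GDH1 counts for ALD4, which then no longer has the pattern of both 0 h and neither 6 h library.

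ALD6 had 1 summit inside the gene in each library. At 0 h the scores were 33.0 and 33.6 in replicates 1 and 2, rank 182 in both. At 6 h they were 21.0 and 24.1, rank 297 in both. These ranks correspond to 15.3% and 15.2% of the list from the top at 0 h and to 23.1% and 27.7% at 6 h. The lists differ in length and their depth is unknown, so no change in binding is read from them.

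At 0 h the ALD6 summits lay 397 and 1124 bp into the gene, counted from the start codon. At 6 h they lay 863 and 739 bp into it. The mean position of 760.5 ± 514 bp at 0 h compared with 801 ± 87.7 bp at 6 h (SD, n = 2), a difference of 40.5 bp that is smaller than the spread between replicates. The difference was -323 bp without 0 h replicate 1 and 404 bp without 0 h replicate 2, and it was -21.5 bp without 6 h replicate 1 and 102.5 bp without 6 h replicate 2. The 299 genes with a summit in all 4 libraries had a median displacement of 84.5 bp downstream, while their replicates differed by a median of 97.0 bp at 0 h and 78.0 bp at 6 h without regard to sign. The 727 bp between the ALD6 summits of the 0 h replicates can be set beside a median of 85.0 bp over the 473 genes that had summits in each 0 h library, of which 6.77% differed by at least as much. ALD4 (440 bp) and ICL1 (314 bp) also differed by more than that median between the 0 h replicates.

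**Figure D2:**
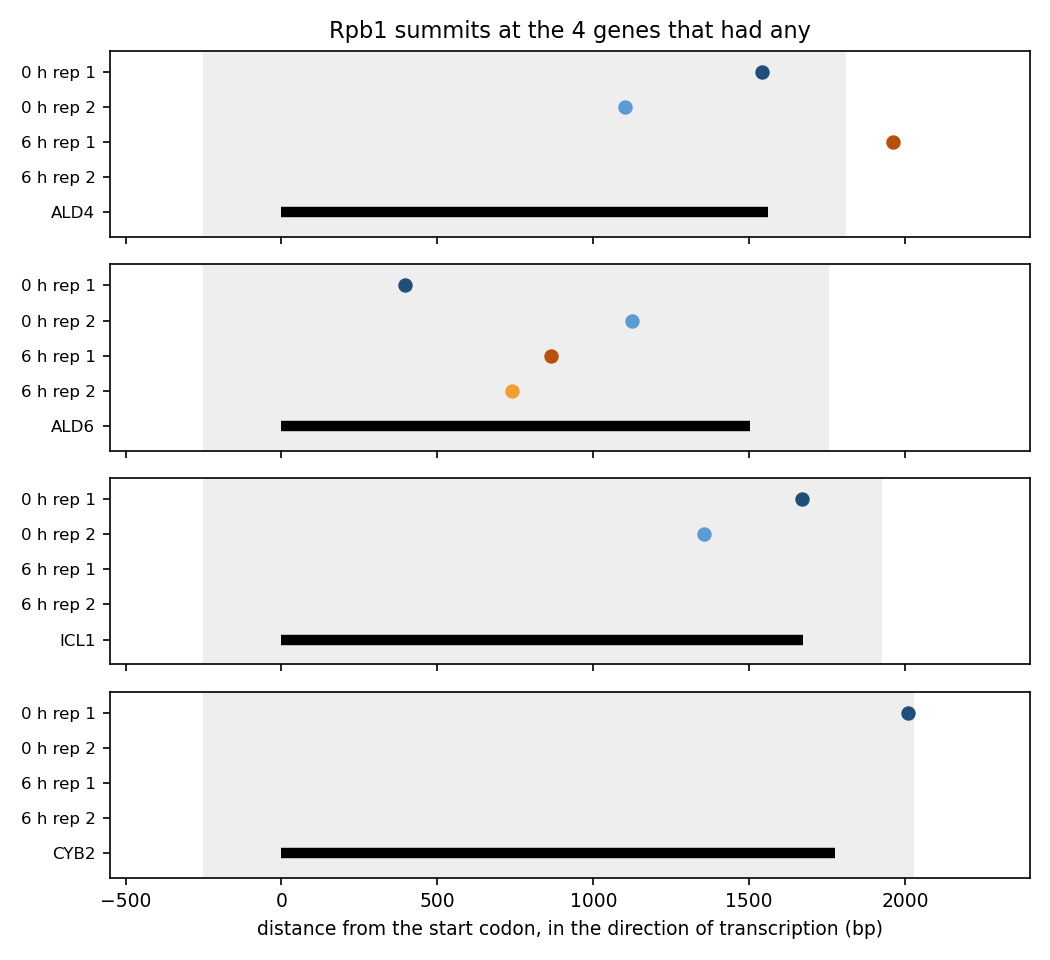
Position of each Rpb1 summit (points, by library) along ALD4, ALD6, ICL1 and CYB2, as distance from the start codon in the direction of transcription (bp). Black bars are the genes and grey bands the genes with 250 bp added. The ALD6 points are spread over the gene, the 0 h points of ALD4 and ICL1 lie in the 3′ part, and the CYB2 point and the 6 h point of ALD4 lie past the stop codon.

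ICL1 and MLS1 encode isocitrate lyase and malate synthase, the enzymes particular to the glyoxylate cycle. The ICL1 summits were weak. In 0 h replicate 1 the summit lay at 285246 bp of chromosome V, 5 bp before the stop codon, with a score of 2.65 and rank 1153 of 1186, close to the lowest score of that list (2.03). In 0 h replicate 2 it lay at 285560 bp, 319 bp before the stop codon, with a score of 5.13 and rank 813 of 1194. Keeping the better-scoring 50% of summits removed it from both libraries, and cutting all lists to 1074 summits removed it from 0 h replicate 1.

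The site nearest to ICL1 outside the gene was present throughout. It lay past the ICL1 stop codon by 2714 and 2907 bp at 0 h and by 2882 and 2801 bp at 6 h. The region was therefore not without summits at 6 h, but none lay within 250 bp of ICL1. No library had a summit within 250 bp of MLS1, and the nearest one was 4040 to 4311 bp away.

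Among the 97 genes with the pattern of ALD4 and ICL1, these 2 stood at different ends when ordered by mean 0 h rank. ALD4 was 13th and ICL1 86th from the strongest. The mean 0 h rank, as percent of the list from the top, was 27.6% for ALD4, 82.7% for ICL1 and 62.3% for the median of the 97 genes. ALD4 was also 1 of 33 of these genes (34.0%) with a summit of a 6 h library within 500 bp, and ICL1 was not.

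CYB2 encodes the lactate dehydrogenase of the mitochondrial intermembrane space and JEN1 the lactate and pyruvate permease of the plasma membrane. The CYB2 summit of 0 h replicate 1 lay at 165298 bp of chromosome XIII, with a score of 5.82 and rank 749 of 1186. It was 235 bp past the CYB2 stop codon, just inside the 250 bp limit, and 28 bp before the stop codon of SPC2, which encodes a subunit of the signal peptidase and runs towards CYB2. The summit was thus inside SPC2 and within the placement uncertainty of that gene's end, and which of the pair it belongs to was not tested. In the other libraries the nearest summit was 1721 bp from CYB2 in 0 h replicate 2 and 2350 and 2597 bp at 6 h. A summit in 1 library alone was found at 8.32% of all genes.

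JEN1 had no summit within 250 bp. The nearest summit was 14725 and 14635 bp away at 0 h, 2018 bp in 6 h replicate 1 and 14702 bp in 6 h replicate 2. The nearer summit of 6 h replicate 1 was not found in the other 6 h library.

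ADH2 encodes the alcohol dehydrogenase that oxidises ethanol to acetaldehyde. It had no summit within 250 bp, and the nearest one was 4394 to 4959 bp away in the 4 libraries. ADH2 is close in sequence to ADH1, the fermentative enzyme gene, and how the authors treated reads that match both is not given in the sources used here. No landmark gene lay within 50 kb of ADH2, so its placement was checked only on the chromosome as a whole.

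FBP1 and PCK1 encode fructose-1,6-bisphosphatase and phosphoenolpyruvate carboxykinase, the enzymes of the irreversible steps of gluconeogenesis. FBP1 had no summit within 250 bp, and the nearest one was 2003 and 1800 bp away at 0 h and 711 and 5193 bp at 6 h. PCK1 had its nearest summit 13559 and 13525 bp away at 0 h and 13551 and 5444 bp at 6 h. At both genes these distances differed more between the 6 h replicates than between the 0 h replicates.

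Over these 5 genes the nearest summit was 711 to 14725 bp away, with a median of 4450 bp. Over all 2023 genes without a summit in any library the median was 4118 bp. The distance to PCK1 at 0 h was exceeded or matched by 8.29% and 8.59% of all genes, and that to JEN1 by 7.03% and 7.16%. At 0 h no flanking summit was found towards higher coordinates from PCK1 or towards lower coordinates from JEN1. Each of these distances is therefore to the other side alone. ADH2 and MLS1 lay nearer the middle, with 32.8% to 38.4% of genes at least as far at 0 h. Landmark genes with a summit in all 4 libraries lay within 50 kb of ALD4, ALD6, ICL1, FBP1, JEN1 and CYB2, but the nearest were 110, 74.2 and 75.0 kb from ADH2, MLS1 and PCK1. MLS1 and PCK1 each had 1 landmark gene within 50 kb, and it had no summit in any library. Placement near these genes was therefore not checked by a landmark with a summit.

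**Figure D3:**
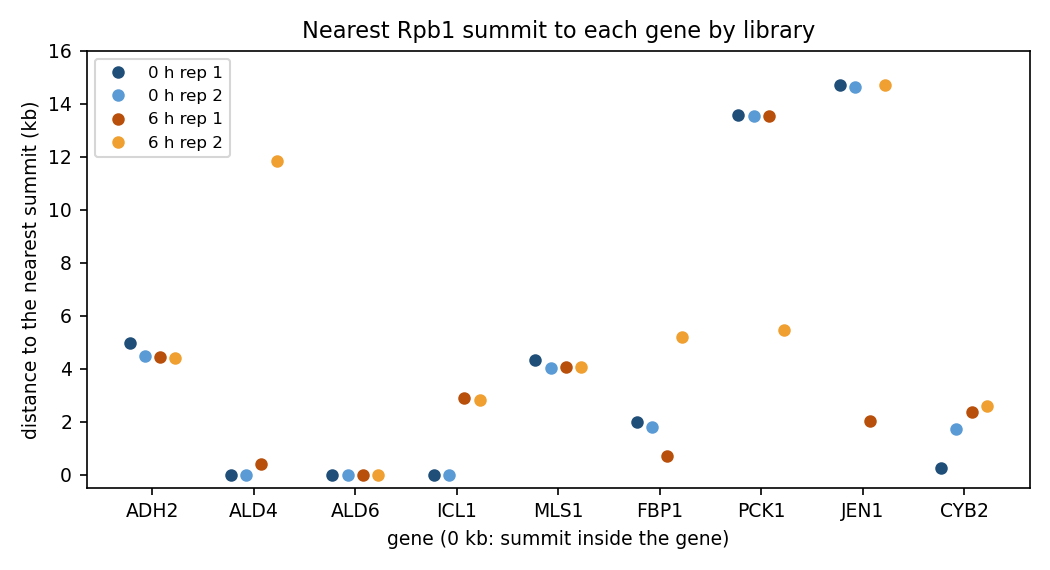
Distance from each of the 9 genes to the nearest Rpb1 summit (kb), with 1 point per library and 0 kb for a summit inside the gene. ALD6 sits at 0 kb throughout, ALD4 and ICL1 at 0 kb at 0 h alone, and JEN1 and PCK1 have 3 points each above 13 kb and 1 that is nearer.

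By a rule that compared ranks over the libraries with a summit, the genes most like ALD4 in their summits were PDR16 and NOG2, among 96 other genes with the same pattern over 2 libraries. PDR16, encoding a phosphatidylinositol transfer protein, had 0 h scores of 16.4 and 18.7, and NOG2, encoding a GTPase of large ribosomal subunit assembly, had 14.0 and 16.2. For ICL1 they were PIR3, a cell wall protein gene, with 3.48 and 5.26, and PPT2 with 2.03 and 4.54. For ALD6, among 298 other genes with summits in all 4 libraries, they were CUE5, encoding a ubiquitin-binding protein, and the ribosomal protein gene RPS1B. The mean absolute difference in rank from ALD6 was 2.18 percentage points for CUE5 and 3.41 for RPS1B.

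The wider list of this metabolism had 20 of its 46 genes on the 7 chromosomes. Of these 20, 13 had no summit in any library (65%, against 67.1% of all genes) and 2 had summits in all 4 libraries (10%, against 9.91%), both close to the background. In the list, 1 gene had the pattern of both 0 h and neither 6 h library (5%, against 3.22% of all genes) and 2 had the opposite one (10%, against 4.28%). The gene found at 0 h alone was ICL2, whose product is a mitochondrial methylisocitrate lyase related to Icl1, with 0 h scores of 4.76 and 7.83. MAE1, encoding the mitochondrial malic enzyme, had 6 h scores of 12.2 and 14.7 and no 0 h summit. ODC1, encoding a mitochondrial carrier for oxodicarboxylic acids, had 6 h summits with scores of 11.6 and 22.0, which lay 192 and 232 bp past its stop codon. ODC1 was not found at 6 h alone by gene bodies, nor with 500 bp added, where ALD5, MDH2 and MAE1 were.

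The genes with summits throughout were ODC2, which encodes a carrier related to Odc1, and ADH1. At ADH1 the 0 h scores were 38.5 and 53.5 (ranks 147 and 82) and the 6 h scores 73.3 and 97.5 (ranks 23 and 32). At ODC2 the 0 h scores were 40.3 and 46.7 and the 6 h scores 32.0 and 30.8. Depth is unknown, so no change in binding at ADH1 or ODC2 is read from these values. The shares in this wider list rest on at most 13 genes and were not tested.

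Of 13 placed genes for regulators of glucose repression, 10 had no summit in any library (76.9%, against 67.1% of all genes), including CAT8 and RDS2, which encode activators of gluconeogenic genes. HAP4, encoding the activating subunit of the Hap complex, had summits throughout, ranked 48 and 105 in the 0 h lists and 410 and 383 in the 6 h lists. It was the only 1 of the 13 with summits in all 4 libraries (7.69%, against 9.91% of all genes). GLC7, encoding the catalytic subunit of protein phosphatase type I, had 0 h summits with best scores of 5.99 and 3.95 and none at 6 h, a pattern found at 1 of the 13 (7.69%, against 3.22% of all genes).

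**Figure D4:**
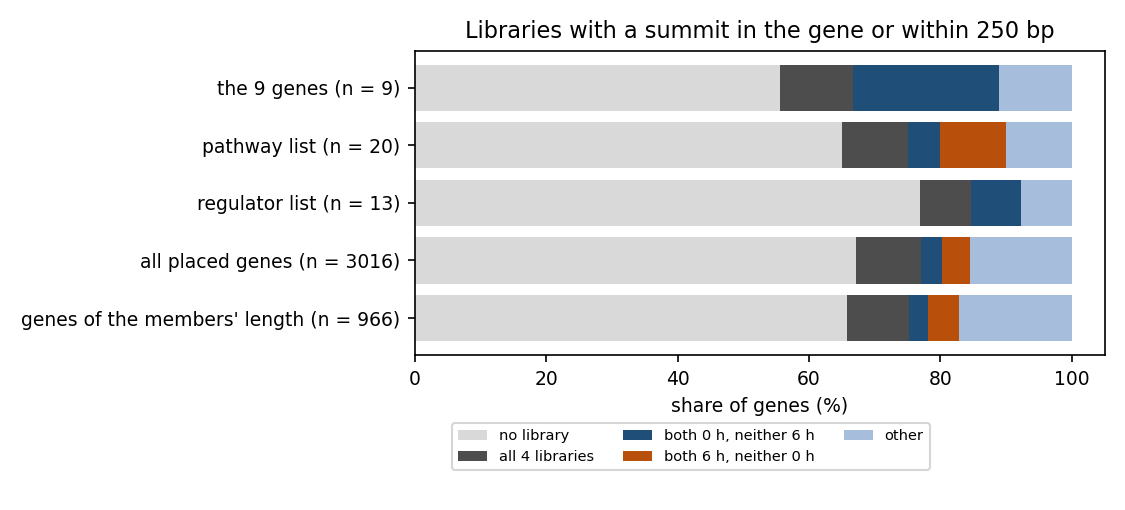
Share of genes (horizontal axis, %) by the libraries in which they had an Rpb1 summit in the gene or within 250 bp, for the 9 genes, the wider metabolic list, the regulator list, all 3016 genes on the 7 chromosomes and the 966 of these with lengths in the range of the 9. The largest segment in each row is genes without a summit, from 55.6% to 76.9%.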

How the data were processed

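Each immunoprecipitated library was deposited as its own list of 1 bp peak summits, so replicates were not pooled. The submitters' processing notes name MACS2 2.2.7.1, fastp 0.20.1, SAMtools 1.10 and Bowtie2 2.2.4 without saying what each did. For the build, the threshold for peaks and the part played by inputs, nothing is stated. The deposited score is on the −log10 scale of MACS2 (p or q is not stated). Gene names, neighbours and ends came from the RefSeq table of R64, with strand read from the locus tag. Coordinates were not converted. To check placement, summits were shifted by up to 12000 bp either way, 100 bp at a time, against the landmark genes. Presence of summits at each gene, 250 bp included on either side, was compared between libraries with Python 3.11.15, pandas 2.3.3 and scipy 1.17.1. The rule was run on simulated summits placed inside the searched windows of genes spaced apart. That run checks the code alone and cannot show how noise, misplacement or close neighbours affect the counts. No count of reads or fold change can be had from summit lists. Members, lists and rules were chosen with earlier results of these data known. All members were named, along with listed genes that had summits in both libraries of a time, and for each such member the 2 genes nearest in mean rank among those with the same libraries.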

Additional observations from a re-analysis of the deposited data

How the results depend on the processing

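ALD4 and ICL1 were the 2 genes with both 0 h and neither 6 h summits, also by gene bodies alone. This count was 1 with 500 bp added (ICL1), with the better-scoring 50% of summits (ALD4) and with lists cut to an equal length of 1074 summits (ALD4). Over all 3016 genes, the same pattern was found at 97 by gene bodies alone, 85 with 500 bp added and 88 with lists of equal length. The 6 h-only pattern was found at 114 of all genes with lists of equal length. Without each library in turn the count among the 9 was 2 to 3, CYB2 joining without 0 h replicate 2. The count of 6 h-only genes among the 9 was 0 under each alternative run. By gene bodies, 67 of all genes and 1 of the wider list (MAE1) were found at 6 h alone, and with 500 bp added 149 and 3. With the better-scoring 50% of summits, 57 of all genes were found at 0 h alone and 84 at 6 h alone, and 0 of the wider list at 0 h alone. Without each library in turn, these counts over all genes were 122 to 149 and 173 to 218. The cause of these changes was not tested, except that a rule over fewer libraries or summits is easier or harder to meet. Among the 966 genes with lengths in the range of the 9, a background chosen after seeing the data, 2.9% were found at 0 h alone and 4.76% at 6 h alone. Ranking among the 7 chromosomes moved the ranks by at most 2.07 percentage points. Replicate numbers are shared between times, and deviations of same-numbered libraries from the time mean correlated at 0.024 over genes. Based on presence or absence in 2 libraries per time, this value cannot show whether same-numbered libraries were handled together. The main counts did not pair them. Under a replicate block (counts within each pair, averaged), 2.5 of the 9 genes were found at 0 h alone, and 198.5 and 258.5 of all genes at 0 h and 6 h alone. Unknown depth limits all statements on missing summits.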
